A study of Mus musculus with 10 samples.

Results

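The genes described here are 10 genes of zinc handling, 3 metallothioneins (*Mt1*, *Mt2* and *Mt3*), the zinc-sensing transcription factor *Mtf1* and 6 zinc transporters (*Slc30a1*, *Slc30a5*, *Slc30a9*, *Slc39a6*, *Slc39a10* and *Slc39a14*), in hearts of *Nos1ap* null and wild-type mouse embryos. The genes were chosen by name, with the comparison of the genotypes already known, and all 10 are among the 23195 genes of the deposited table. Since the choice drew on this comparison, their differences between genotypes are given as a description, and the test across all genes serves as the background. Stranded polyA RNA-seq was performed on heart tissue from male embryos at embryonic day 13.5, 5 wild type (*Nos1ap* +/+) and 5 homozygous for the constitutive null allele (*Nos1ap* tm1d/tm1d). The null allele lacks exon 4 of *Nos1ap* and was made by crossing floxed (tm1c) carriers with CMV-Cre mice, in which the recombinase is not limited to heart muscle. It carries neither the *lacZ* nor the *neo* cassette. The targeted embryonic stem cells (JM8A3.N1) came from C57BL/6N, the line was backcrossed to C57BL/6J, and the labels give both groups as C57BL6/J. The samples are whole pieces of heart, in which fewer cells of a type and less RNA per cell cannot be told apart. The labels name the libraries of a group as separate samples and say nothing more of how they were obtained, so that part of the spread between them may be technical.

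Metallothioneins are small cysteine-rich proteins that bind zinc and copper and buffer the free metal of the cytosol. Zinc transporters fall into 2 families with opposite direction, the SLC30 (ZnT) proteins, which carry zinc out of the cytosol to the outside or into organelles, and the SLC39 (ZIP) proteins, which carry it into the cytosol. When free zinc rises, MTF1 binds short DNA elements named metal response elements (MREs) and activates *Mt1*, *Mt2* and the exporter gene *Slc30a1*. Glucocorticoids and oxidative stress also raise *Mt1* and *Mt2* in many tissues.

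*Mt1* (ENSMUSG00000031765.7), *Mt2* (ENSMUSG00000031762.6) and *Mt3* (ENSMUSG00000031760.8) lie side by side on the plus strand of chromosome 8, at chr8:94179082-94180327, chr8:94172664-94173568 and chr8:94152607-94154146 (GRCm38, GENCODE M21). With *Mt4*, which is not listed in the deposited table, they span 43131 bp, and 5513 bp separate *Mt2* from *Mt1*. *Slc30a1* (ENSMUSG00000037434.7) is at chr1:191906767-191913247. The promoters of *Mt2*, *Mt1* and *Slc30a1*, the textbook targets of MTF1 in the set, are shown from RefSeq (GRCm38.p6, plus strand). Each stretch runs from 250 bases before the annotated RefSeq start site up to that site. Where the first annotated base of GENCODE comes earlier, the stretch ends at the base before it. The stretches cover chr8:94172368-94172617, chr8:94178839-94179081 and chr1:191906531-191906766. Capitals mark the MRE core, TGCACNC or TGCGCNC, on either strand.
*Mt2* promoter: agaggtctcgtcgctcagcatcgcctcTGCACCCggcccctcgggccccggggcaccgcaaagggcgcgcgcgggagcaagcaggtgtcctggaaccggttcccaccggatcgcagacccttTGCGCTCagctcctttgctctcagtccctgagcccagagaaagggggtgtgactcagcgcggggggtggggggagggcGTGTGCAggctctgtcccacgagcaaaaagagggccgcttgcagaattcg
*Mt1* promoter: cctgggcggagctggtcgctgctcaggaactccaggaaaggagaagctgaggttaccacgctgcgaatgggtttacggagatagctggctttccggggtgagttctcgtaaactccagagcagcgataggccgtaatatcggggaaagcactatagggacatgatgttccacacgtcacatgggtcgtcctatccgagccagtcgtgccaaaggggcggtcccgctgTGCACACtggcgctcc
*Slc30a1* promoter: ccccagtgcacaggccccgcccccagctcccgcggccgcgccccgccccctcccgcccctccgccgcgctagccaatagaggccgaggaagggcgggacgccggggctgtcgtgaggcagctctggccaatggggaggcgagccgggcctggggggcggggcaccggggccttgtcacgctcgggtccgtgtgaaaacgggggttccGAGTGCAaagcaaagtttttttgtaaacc

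The core was counted on both strands in the 300-base RefSeq windows from 250 bases before to 50 bases after the start site, with overlapping matches counted separately. Of 32851 windows of all genes, 25.7% held at least 1 core, 7.11% at least 2, 1.97% at least 3 and 0.517% at least 4. Windows were found for 8 of the 10 genes, and *Slc39a10* has 2 of them. The window of *Mt2* held 4 cores, that of *Mt1* 3 and that of *Slc30a1* 2. *Mt3* and *Slc30a5* (100802648 to 100833427 on chromosome 13) had 1 each. The windows of *Mtf1* (124802104 to 124849800 on chromosome 4), *Slc30a9* (67306955 to 67358443 on chromosome 5) and *Slc39a10* (46807544 to 46892852 on chromosome 1) held 0. *Slc39a6* and *Slc39a14* (70303469 to 70351425 on chromosome 14) had no window.

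Cores also fell downstream of the transcript starts annotated in GENCODE. These starts were taken as given, and where transcription began in these hearts was not tested. Such cores are therefore not shown to be transcribed, and they may be promoter sequence. The first 200 bases of the principal transcript held 4 cores in *Mt1*, 3 each in *Mt2* and *Mt3*, 1 each in *Slc30a1* and *Slc30a5*, and 0 in *Mtf1*, *Slc30a9*, *Slc39a10* and *Slc39a14*. Among 21820 principal transcripts, 21.2% held at least 1 core there, 0.816% at least 3 and 0.147% at least 4. These windows overlap the promoter windows in part, and a core lying in both was counted in each. A core for each form of the motif in *Mt1* and the plus-strand core of *Mt2* are shown, with positions counted from the first base of the transcript.
*Mt1*, bases 10 to 16: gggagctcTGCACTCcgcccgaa
*Mt1*, bases 106 to 112: aaacccttTGCGCCCggactcgt
*Mt2*, bases 66 to 72: ggagctttTGCGCTCgacccaat
A match describes the sequence and does not show that MTF1 was bound there.

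The values below are normalized counts, that is, read pairs of a gene after division by a size factor, which brings libraries of different depth to a common scale. The deposited table gives the mean of each group, and the whole counts of single libraries were recovered from these means (98.8% of wild-type and 99.1% of null means under 1000). The libraries of each group are called 1 to 5 in order of falling size factor, which is not the replicate number of the labels. An estimated 11328233 to 14023004 read pairs per library fell on genes. *Nos1ap* itself had 124 to 169 read pairs in the wild-type libraries and 29 to 47 in the null libraries. All 9 cardiomyocyte markers were present, and their deposited means summed to 397171 (wild type) and 404328 (*Nos1ap* null). Libraries that stood apart were wild-type library 3, with a summed level of 756 over 6 neuronal and glial markers against 154 to 209 in the other wild-type and 155 to 195 in the null libraries, and null library 2, with 421 over 3 erythroid markers against 68.6 to 204 in the other null and 73.5 to 266 in the wild-type libraries. The log2 fold changes were therefore also computed without these libraries.

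*Mt2* was the gene of the set that differed most between genotypes. In wild-type libraries 1 to 5, *Mt2* had 27.8, 29.0, 31.6, 55.7 and 32.1 normalized counts (32, 30, 31, 54 and 31 read pairs). In *Nos1ap* null libraries 1 to 5 it had 69.3, 72.4, 75.6, 79.5 and 107 normalized counts (77, 72, 75, 74 and 98 read pairs). Every null library lay above every wild-type library, and each group had a single high library, wild-type library 4 and null library 5. The group means were 35.2 ± 11.6 and 80.7 ± 15.03 (SD, n = 5), a ratio of 2.29. By limma, fitted to log2(normalized count + 1), the log2 fold change was 1.203 (standard error 0.176, 95% confidence interval 0.84 to 1.57). Without wild-type library 4 it was 1.38, without null library 5 it was 1.10, and without wild-type library 3 and null library 2 together it was 1.21. The null library 2 that carried the most erythroid signal had 72.4 normalized counts of *Mt2*, within the range of the other null libraries.

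*Mt1*, the most abundant of the 3 metallothioneins, had 217, 226, 197, 295 and 237 normalized counts in wild-type libraries 1 to 5. The *Nos1ap* null libraries had 264, 315, 289, 301 and 349.6. The groups overlapped, since wild-type library 4 lay above null libraries 1 and 3, while the other 4 wild-type libraries lay below every null library. The means were 234 ± 36.9 and 304 ± 31.8 (SD, n = 5), and the log2 fold change was 0.38 (standard error 0.0950, 95% confidence interval 0.18 to 0.58). It ranged from 0.32 to 0.47 with each library left out in turn. The ranges of the groups separated without wild-type library 4.

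*Mt3*, known mainly from the brain, had 55.7, 48.4, 66.2, 59.9 and 39.3 normalized counts in wild-type libraries 1 to 5 and 54.9, 67.4, 74.6, 63.4 and 65.3 in *Nos1ap* null libraries 1 to 5. Only 2 null libraries exceeded the highest wild-type library. The means of 53.9 ± 10.4 and 65.1 ± 7.12 (SD, n = 5) gave a log2 fold change of 0.28 (standard error 0.144, 95% confidence interval −0.02 to 0.58), an interval that includes 0. Without wild-type library 5, the lowest of all 10, it was 0.18.

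**Figure D1:**
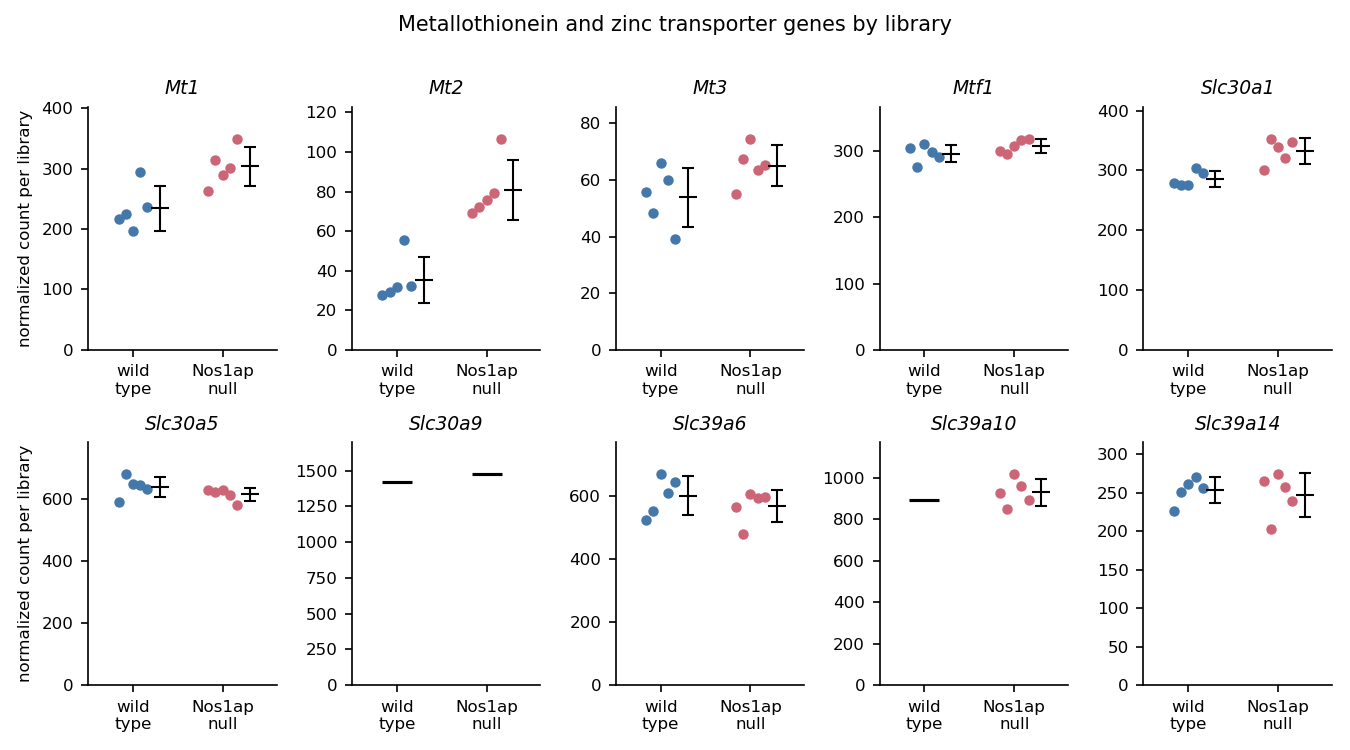
Normalized counts per library (vertical axes, from 0) of the 10 genes in 5 wild-type (blue) and 5 *Nos1ap* null (red) hearts. Points are libraries 1 to 5 from left to right, black bars the group mean with its SD, and a black line alone the deposited group mean where single libraries could not be recovered. The groups of *Mt2* do not overlap, those of *Mt1* and *Slc30a1* overlap by single libraries, and those of the other genes with both groups recovered overlap as well.

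The relative shares of the *Mt1* and *Mt2* transcripts also differed. *Mt2* gave 11.4%, 11.4%, 13.8%, 15.9% and 11.9% of the summed *Mt1* and *Mt2* read pairs in wild-type libraries 1 to 5. In *Nos1ap* null libraries 1 to 5 it gave 20.8%, 18.7%, 20.7%, 20.9% and 23.4%. The highest wild-type share lay below the lowest null share, with means of 12.9% ± 1.95 and 20.9% ± 1.66 (SD, n = 5). The Wilson 95% confidence intervals of single libraries, which cover counting error only, were wider than this gap. They ran from 12.4% to 20.1% in wild-type library 4 and from 15.1% to 22.9% in null library 2. The share does not depend on the size factors.

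**Figure D2:**
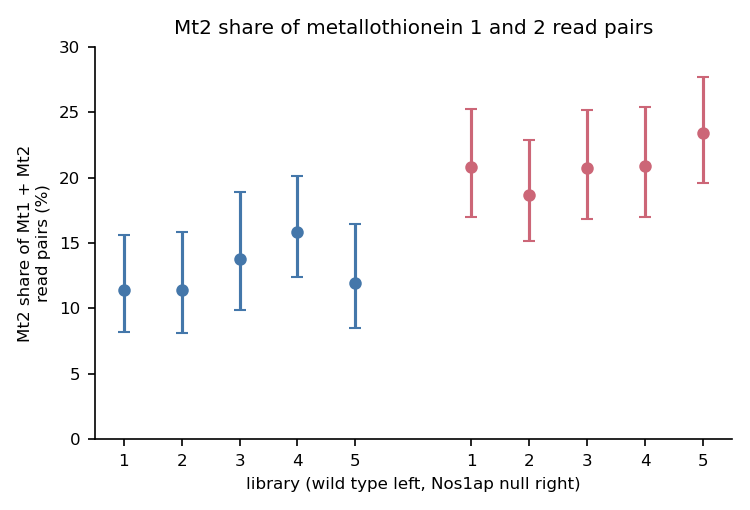
Percentage of *Mt1* plus *Mt2* read pairs that came from *Mt2* (vertical axis) in each library (horizontal axis, wild type in blue and *Nos1ap* null in red). Points are the shares and bars their Wilson 95% confidence intervals from 225 to 419 read pairs per library. All 5 null libraries sit above the highest wild-type library, at 15.9%.

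Counts of the metallothioneins could be affected by transcripts of similar sequence. Of the stretches of 31 bases in the principal transcripts, 0 of 519 in *Mt1* and 0 of 506 in *Mt3* occurred in transcripts of another gene on the same strand, and 3 of 481 in *Mt2* did (in *Pip5k1a*). On the opposite strand, 55.5% of those of *Mt2* lie in the antisense gene *Gm45774* (94170748 to 94173412 on chromosome 8), which is not listed in the deposited table. Antisense genes likewise cover 9.09% of the *Mtf1* transcript (*1110065P20Rik*) and 8.42% of that of *Slc30a1* (*1700034H15Rik*). The authors counted by strand, which keeps such reads apart.

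*Mtf1* (ENSMUSG00000028890.13) encodes the factor that reads zinc in the nucleus. It had 305, 277, 310.5, 298 and 292 normalized counts in wild-type libraries 1 to 5 and 299.7, 297, 308, 317 and 319 in *Nos1ap* null libraries 1 to 5. The groups overlapped in part, with 2 null libraries above every wild-type library and 2 wild-type libraries below every null library, and with means of 297 ± 13.1 and 308 ± 9.98 (SD, n = 5). The log2 fold change was 0.05 (standard error 0.0566, 95% confidence interval −0.06 to 0.17). A change larger than 0.17 in the transcript of the sensor lay outside this interval.

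Among the exporters, *Slc30a1* (ZnT1, the zinc exporter of the plasma membrane) had 279, 275, 276, 304 and 296 normalized counts in wild-type libraries 1 to 5. The *Nos1ap* null libraries had 301, 353, 339, 320.0 and 347. Of the 5 null libraries, 4 lay above the highest wild-type library, and null library 1 fell between the wild-type libraries. The means were 286 ± 13.3 and 332 ± 21.5 (SD, n = 5), and the log2 fold change was 0.21 (standard error 0.0610, 95% confidence interval 0.09 to 0.34). It was 0.19 without null library 2 and ranged up to 0.25 with other libraries left out. The ranges separated without wild-type library 4 and without null library 1.

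*Slc30a5* (ENSMUSG00000021629.9), a ZnT of the early secretory pathway, had 589, 679.5, 647, 643 and 631 normalized counts in wild type and 627, 622, 628, 611 and 579 in *Nos1ap* null. All but 1 of the null libraries lay within the wild-type range. The log2 fold change was −0.06 (standard error 0.0469, 95% confidence interval −0.15 to 0.04). *Slc30a9* (ENSMUSG00000029221.15), which exports zinc from mitochondria, was too abundant for its single libraries to be recovered. Its deposited means, wild type first, were 1420.2 and 1477, a log2 ratio of 0.06.

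Among the importers, *Slc39a6* (ENSMUSG00000024270.11), a ZIP importer that can pair with the protein of *Slc39a10*, had 526, 554, 672, 612 and 648 normalized counts in wild type and 566, 482, 609, 595 and 597 in *Nos1ap* null. The lowest value was that of null library 2, and the other null libraries lay within the wild-type range. The log2 fold change was −0.08 (standard error 0.0735, 95% confidence interval −0.23 to 0.08), −0.02 without null library 2 and 0.02 when wild-type library 3 was left out as well.

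*Slc39a10* (ENSMUSG00000025986.6) had 929.7, 851, 1020.3, 962 and 894 normalized counts in the *Nos1ap* null libraries, a mean of 931 ± 64.7 (SD, n = 5). Its wild-type libraries could not be recovered, and the deposited wild-type mean of 895 lay within the range of the null libraries. *Slc39a14* (ENSMUSG00000022094.15), which imports zinc, iron and manganese, had 226, 251, 262, 270.4 and 257 normalized counts in wild type and 265, 202, 274, 257 and 239 in *Nos1ap* null. Its highest and its lowest value were both found in null libraries. The log2 fold change was −0.04 (standard error 0.0792, 95% confidence interval −0.20 to 0.13), with the opposite sign, 0.03, without null library 2.

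Of the 10 genes, 8 had recovered counts in both groups and reached the minimum mean of 10 normalized counts, and so entered the test across all 10303 protein-coding genes. By limma at the thresholds of the study, a false discovery rate (FDR) of 1% and an absolute log2 fold change over 1, 1 of the 8 was called, *Mt2*, against 0.0291% of all genes tested (3 genes), or 0.00971% called as higher in *Nos1ap* null. The limma FDR of *Mt2* was 0.00409 with all libraries, and the call was lost without wild-type library 1, 2 or 5 and without null library 1, 3, 4 or 5, where the FDR reached up to 0.0384. With an unadjusted limma p under 0.05 there were 3 of the 8 (*Mt1*, *Mt2* and *Slc30a1*), all higher in *Nos1ap* null, against 3.56% of all genes and 1.72% in that direction. The ranges of the 2 groups were separate for 1 of the 8 and for 0.786% of all genes (0.427% with the null libraries higher). The median log2 fold change was 0.13 over the 8 genes and −0.0044 over all genes tested. Because the genes were named with this contrast in view, nothing is read from these shares.

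The zinc family outside the set was taken by name, as every other metallothionein, SLC30 and SLC39 gene. Of these 19 genes, 16 are in the table (*Mt4*, *Slc30a8* and *Slc39a5* are not listed) and 10 were tested. By limma 0 of the 10 were called, 0 had an unadjusted p under 0.05 and 0 had separate ranges. Their median log2 fold change was 0.03, with 6 above and 4 below 0, and 47.9% of all genes tested were above 0.

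Among the other exporters, log2 fold changes were 0.06 for *Slc30a6* (standard error 0.0808), which works together with *Slc30a5*, 0.03 for *Slc30a7* (standard error 0.0614), −0.01 for *Slc30a4* (standard error 0.0545) and −0.05 for *Slc30a2* (standard error 0.317), which had a mean near 10. *Slc30a10*, an exporter of manganese, was decided by 1 library. Its null libraries had 19.8, 132, 9.07, 19.3 and 28.3 normalized counts and its wild-type libraries 10.4, 3.87, 27.5, 23.7 and 12.4. The value of 132 belonged to null library 2, which also had the highest summed level of erythroid markers. The log2 fold change of *Slc30a10* was 1.00 (standard error 0.731) with all libraries and 0.43 (standard error 0.479) without null library 2, and the part of the erythroid signal in it was not tested.

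Among the other importers, log2 fold changes were 0.18 for *Slc39a11* (standard error 0.0975), 0.05 for *Slc39a9* (standard error 0.0462), 0.03 for *Slc39a2* (standard error 0.176), −0.02 for *Slc39a13* (standard error 0.0560) and −0.05 for *Slc39a3* (standard error 0.0884). *Slc39a11* was 0.11 without null library 2, where it was highest. *Slc39a1* and *Slc39a7* were too abundant for single libraries, with deposited means of 1235 and 1222 for *Slc39a1* and 1386 and 1349 for *Slc39a7* in wild type and *Nos1ap* null. *Slc39a8*, a ZIP importer of zinc and manganese, had deposited means of 405 (wild type) and 499 (null). Its null libraries could not be recovered, so that this difference has no error. *Slc30a3*, *Slc39a4* and *Slc39a12* had means below 10 and were not tested.

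**Figure D3:**
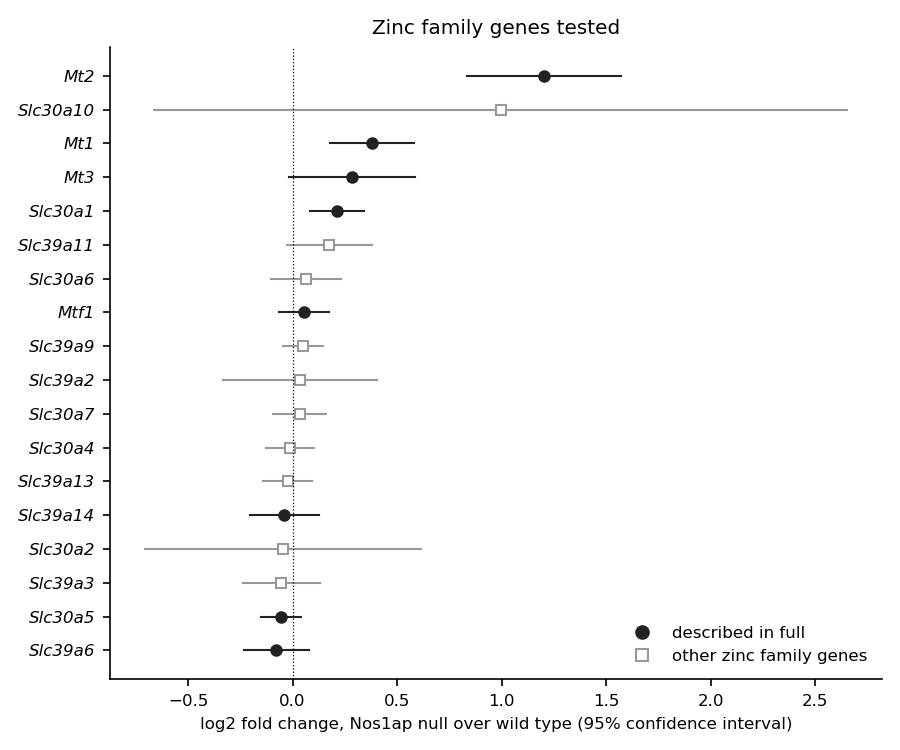
Log2 fold change of *Nos1ap* null over wild type (horizontal axis) for the 18 zinc family genes tested, with limma 95% confidence intervals as lines. Filled circles are the 8 genes described in full and open squares the 10 others. The intervals of *Mt2*, *Mt1* and *Slc30a1* lie above 0, and that of *Slc30a10*, whose estimate rests on null library 2, is the widest.

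Levels were compared between genes per kb of the principal transcript (transcript lengths from 511 bases for *Mt2* to 7631 for *Mtf1*). In wild type the order was *Mt1* (427 ± 67.3 normalized counts per kb, SD, n = 5), *Slc30a9* (249), *Slc30a5* (201 ± 10.3), *Slc39a10* (163), *Slc39a6* (155 ± 15.8), *Mt3* (101 ± 19.4), *Mt2* (69.0 ± 22.7), *Slc30a1* (54.6 ± 2.54), *Slc39a14* (51.4 ± 3.39) and *Mtf1* (38.9 ± 1.71). The ranges of *Mt3* and *Mt2*, of *Mt2* and *Slc30a1* and of *Slc30a1* and *Slc39a14* overlapped. Within a wild-type library, however, *Mt3* was above *Mt2* in 5 of 5 libraries, *Mt2* above *Slc30a1* in 5 of 5 and *Slc30a1* above *Slc39a14* in 4 of 5. *Slc30a9* and *Slc39a10* have no per-library values in wild type, and their neighbours were not compared. In *Nos1ap* null the mean level of *Mt2* was 158 normalized counts per kb, above that of *Mt3* (121) and *Slc39a6* (147), which both stood above it in wild type. The ranges overlapped there too, and *Mt2* was above *Mt3* in 5 of 5 null libraries and above *Slc39a6* in 3 of 5. Of the 26 family genes, *Slc39a7* (597) and *Slc39a1* (522) stood above *Mt1* in wild type. Division by the whole transcript length understates short transcripts such as those of the metallothioneins, because fewer fragments fit on them.

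**Figure D4:**
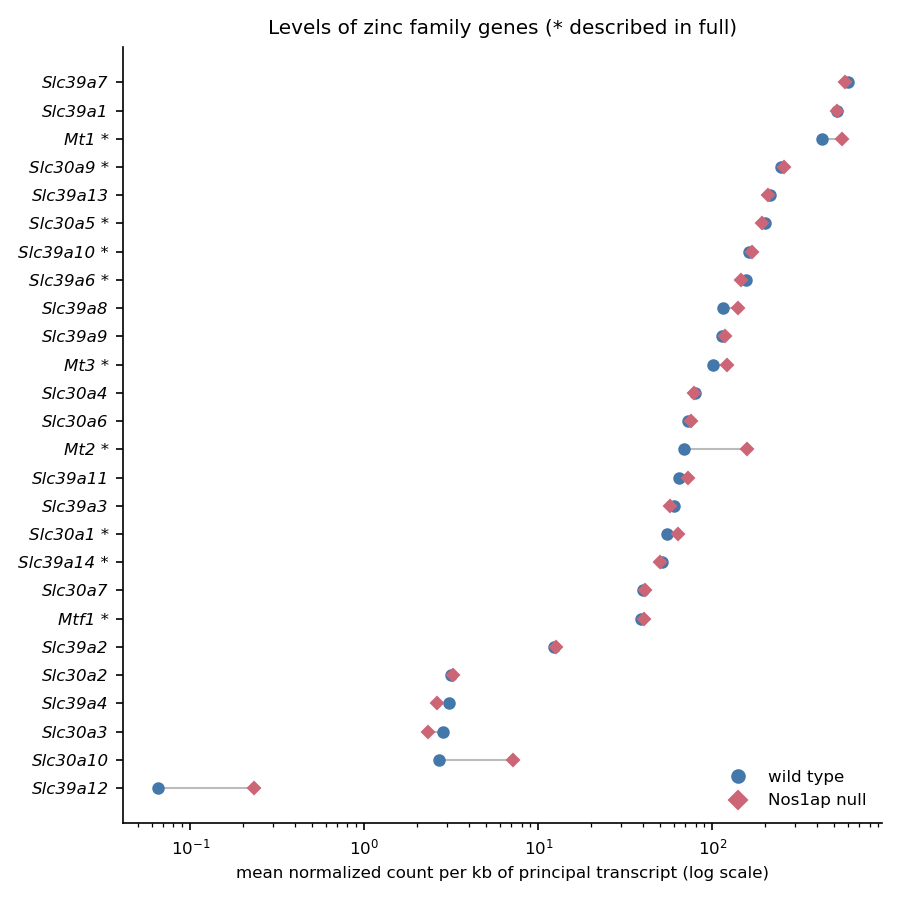
Mean normalized count per kb of principal transcript (horizontal axis, log scale) of the 26 zinc family genes of the table, from the deposited group means of wild type (blue circles) and *Nos1ap* null (red diamonds), without error bars. Asterisks mark the 10 genes described in full. *Mt2* moves from 69.0 to 158 and passes *Mt3*.

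How much the libraries of a group varied also differed between the genes. The coefficient of variation (CV) of *Mt1* was 15.8% in wild type, 2.43 times the 6.48% that counting error alone would give, and 6.62% of all genes tested had a larger ratio. For *Mt2* the CV in wild type was 32.9% against 16.8% from counting, and in *Nos1ap* null 18.6% against 11.2%. *Slc39a6* was as variable in wild type relative to counting, at 10.2% against 4.04%. *Mtf1* and *Slc30a1* varied least there, with CVs of 4.41% and 4.65%, both below their counting error of 5.75% and 5.86%. The median ratio over all genes tested was 1.24 for wild type and 1.16 for the null libraries.

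Within groups, some of the genes moved together from library to library. After the mean of each group was removed, log2 normalized counts over the 10 libraries gave a Pearson correlation of 0.86 between *Mt1* and *Mt2*, 0.79 between *Mt1* and *Slc30a1* and 0.59 between *Mt2* and *Slc30a1*. *Mt3* did not follow its neighbours, with 0.03 for *Mt1* and 0.26 for *Mt2*. *Mtf1* gave 0.02 with *Mt1* and 0.32 with *Mt2*. The importers *Slc39a6* and *Slc39a14* gave 0.79 with each other. All values come from the same 10 libraries and share their size factors, and they are descriptive. Among 8389 protein-coding genes with at least 50 normalized counts on average, the 4 most like the average of *Mt1* and *Mt2* by this measure were *Gclc* (0.90), which encodes the catalytic subunit of the enzyme that limits glutathione synthesis, *Ptpn2* (0.88), *Oxnad1* (0.88) and *Vps13a* (0.87). *Slc30a1* ranked 82 (0.68). The log2 fold changes between genotypes of these 4 genes lay between 0.02 (*Oxnad1*) and 0.14 (*Vps13a*), with 0.13 for *Gclc* (standard error 0.0702). *Mt1*, *Mt2* and *Gclc* (325 and 340 normalized counts) were each highest of their group in wild-type library 4 and in null library 5. Correlations without these libraries were not computed, and the values may rest largely on them.

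The genes flanking the metallothioneins on chromosome 8 did not share the difference of *Mt2*. On each side, the 3 closest protein-coding genes were taken, a choice made after the values of the cluster were seen. On the *Mt4* side, *Bbs2* had a log2 fold change of −0.06 (standard error 0.0946), *Ogfod1* −0.06 (standard error 0.0680) and *Nudt21* −0.03 (standard error 0.0464). On the *Mt1* side, *Nup93*, 34237 bp away, had 0.04 (standard error 0.0487) and *Herpud1* 0.03 (standard error 0.0546), while *Slc12a3* was below a mean of 10 and was not tested.

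Genes of related pathways were counted from fixed lists. Of 9 genes described as MTF1 targets, 6 were tested and all 6 had a log2 fold change above 0, against 47.9% of all genes tested. The 3 with an unadjusted limma p under 0.05, against 3.56% of all genes tested, were *Mt1*, *Mt2* and *Slc30a1*. These 3 belong to the set named with this contrast known, so nothing is read from these counts. The other 3 were *Gclc* at 0.13, the iron exporter *Slc40a1* at 0.09 (standard error 0.0881) and *Ndrg1* at 0.02 (standard error 0.0887). The stress-induced heme oxygenase gene *Hmox1* belongs to this list too. Its deposited means were 305 (wild type) and 432 (null), and its null libraries could not be recovered. The wild-type libraries of *Hmox1* had 243 to 445 normalized counts, a range that includes the null mean.

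Of 8 copper genes tested, which include the copper importer *Slc31a1* and the pumps *Atp7a* and *Atp7b*, 7 were above and 1 below 0, with a median of 0.04 and a highest value of 0.17 for *Atp7a*. Of 5 iron genes tested, 4 were above and 1 below 0, with a median of 0.04. Of 9 genes of the glucocorticoid response tested, 7 were above and 2 below 0, with a median of 0.05 and values from −0.05 to 0.09. Of 7 genes of the NRF2 oxidative stress response tested, 5 were above and 2 below 0, with a median of 0.05. Only *Srxn1*, which repairs oxidized peroxiredoxins, exceeded 0.3 (0.36, standard error 0.177). *Srxn1* was highest in null library 2, at 195 normalized counts. Of its null libraries, 2 lay above the wild-type range of 74.5 to 115. By limma, 0 genes of these 4 lists were called and 0 had an unadjusted p under 0.05, against 0.0291% and 3.56% of all genes tested. Of all genes tested, 47.9% were above 0. The lists are small, and nothing is read from their directions. The NRF2 list also holds *Hmox1*, given above, and *Gclm*, the modifier subunit partner of *Gclc*. *Gclm* had deposited means of 542 (wild type) and 731 (null) and no recovered libraries. The log2 ratios of the deposited means were 0.51 for *Hmox1* and 0.43 for *Gclm*, without an error. The null mean of *Hmox1* lay within the range of its wild-type libraries. *Txnrd1*, also of this list, was too abundant for single libraries. Its deposited means were 1643 (wild type) and 1657 (null), a log2 ratio of 0.01. Of all 11 genes of the NRF2 list, 9 had a higher and 2 a lower deposited mean in *Nos1ap* null.

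Levels of markers of other cell types differed between single libraries or between group means, and are given beside the metallothionein values. None of the markers tested was called by limma, against 0.0291% of all genes tested. Of 12 erythroid markers 11 were in the table, none of them at 0, and 10 had a higher deposited mean in *Nos1ap* null, the means summing to 169985 and 247835. Over the 3 with recovered counts, the sums were 152, 92.9, 90.6, 266 and 73.5 in wild-type libraries 1 to 5 and 115, 421, 68.6, 154 and 204 in *Nos1ap* null libraries 1 to 5. Of these, *Gata1* had a log2 fold change of 0.93 (standard error 0.354) and *Klf1* of 0.42 (standard error 0.537). Wild-type library 4, the highest in *Mt1* and *Mt2* of its group, was also highest in erythroid markers of its group, whereas null library 5, the highest in *Mt1* and *Mt2*, was second to null library 2. Liver markers, 11 of 12 in the table with none at 0, had deposited means that summed to 287 and 285. Their sums ranged from 198 to 337 in wild type, highest in library 4, and from 218 to 346 in *Nos1ap* null, highest in library 5, and *Trf* made up most of them (deposited means of 218 and 237). Of the 11 markers, 7 had a lower deposited mean in *Nos1ap* null, and without *Trf* the means summed to 69.0 and 47.3, with wild-type library 2 and null library 5 highest. Alpha-fetoprotein (*Afp*) had a log2 fold change of −0.74 (standard error 0.800). The part of erythroid and liver cells in the difference of *Mt1* and *Mt2* was not tested.

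Neuronal and glial markers, all 11 in the table, had lower deposited means in *Nos1ap* null, with summed means of 1547 and 557. Log2 fold changes were −0.74 (standard error 0.679) for *Sox10* and −0.44 (standard error 0.458) for *Elavl4*, with 95% confidence intervals that include 0. *Sox10* had 141 normalized counts in wild-type library 3, against 9.57 to 13.6 in the other wild-type and 6.44 to 16.2 in the null libraries. *Elavl4* had 237 in wild-type library 3, against a wild-type median of 48.5 and at most 62.1 in the null libraries. The summed level of the markers was also highest in wild-type library 3, and the part of that library in these values was not tested. In that library *Mt2* had 31.6 and *Mt3* 66.2 normalized counts, the latter the highest of wild type. Of 7 myeloid markers 6 had a lower deposited mean in *Nos1ap* null (summed means of 860.3 and 804). Among them were *Itgam* (log2 fold change −0.90, standard error 0.252) and *Fcgr3* (−0.33, standard error 0.168). By limma, 0 of the 6 myeloid markers tested were called, against 0.0291% of all genes tested. Ranges were separate for 1 of them, *Itgam*, and for 0.786% of all genes tested. Lung epithelium markers, 6 of 8 in the table and *Cldn6* at 0 in *Nos1ap* null, had summed means of 392 and 375. Epicardial markers (6 in the table) had summed means of 3903 and 4123, and *Wt1* among them a log2 fold change of 0.18 (standard error 0.0631; limma p 0.00941 unadjusted and 0.998 adjusted). Endothelial markers (6 in the table) had summed means of 11013 and 11393. The part of these cell types in the values of the zinc genes was not tested.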

How the data were processed

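The authors sequenced polyA RNA of 5 wild-type and 5 *Nos1ap* null hearts with a stranded kit as paired-end reads on an Illumina HiSeq. Reads were trimmed (Trimmomatic 0.36) and mapped by STAR, run within RSEM 1.2.31, to GENCODE M10 transcripts on GRCm38. Read pairs were counted per gene by strand, and genes whose counts summed to over 1 were compared with DESeq 1.24.0. The authors deposited signal values, which are group means of counts divided by size factors, and the column of each genotype was taken from their own legend to the same table. Further columns hold their own fold changes, p-values and adjusted p-values, which are not used.

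The digits of the group means were resolved by lattice reduction into size factors and whole counts per library, up to a mean of 1000. Solutions were accepted if chance would yield no more than 0.01 alternative solutions of equal closeness. In simulated counts, 2830 of 3000 wild-type and 2814 of 3000 null means were recovered, and 0 wrongly. The simulated spread between libraries was small, so genes with widely spread libraries, such as *Sox10* in wild type, were not covered. Depth was estimated as the summed means multiplied by the size factor. Testing covered protein-coding genes with counts in both groups and a mean of 10 or more, and used limma 3.58.1 (R 4.3.3; trended, robust) on log2(normalized count + 1), with Benjamini-Hochberg adjustment over all 10303 genes, without covariates. The test was checked on simulated counts. Tables were made in Python 3.11.15. Alternatives changed the pseudocount (0.5), the model (voom), the filter (none, or a mean of 50), the gene types, the scaling and the libraries included.

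The genes described and all lists were chosen with earlier results of these data known. Every zinc family gene is named, other list genes where the absolute log2 fold change exceeded 0.3 or the groups did not overlap, and the genes most like *Mt1* and *Mt2*, of which 5 were to be named. A few genes chosen in this way are not reported here. *Hmox1*, *Gclm* and *Txnrd1*, whose counts were not fully recovered, were chosen after their values were seen. So were other list genes named as examples, the neighbouring genes, and the promoter and transcript windows. Some other list genes that lacked such counts are not named. Positions are from GENCODE M21 and promoters from RefSeq, both on GRCm38. Intervals of shares cover counting error only.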

Additional observations from a re-analysis of the deposited data

Results flagged for a closer look

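In 38 groups of 5 libraries (zinc family genes with recovered counts and a mean of at least 10), the gap between the highest or the lowest library and its nearest neighbour was compared with the range of the group by Dixon's criterion at 95%, and 3 groups exceeded it. Chance flags about 1 group in 20. *Mt2* stood at 55.7 normalized counts in wild-type library 4, against 32.1 in the next library, and at 107 in null library 5, against 79.5. The same libraries had the highest *Mt1* of their group (295 and 349.6). *Slc30a10* stood at 132 normalized counts in null library 2, against 28.3 in the next library.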

How the results depend on the processing

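With a pseudocount of 0.5, with voom, with no filter or a filter at a mean of 50, with genes of every type, with scaling by total recovered counts and with either FDR threshold alone, *Mt2* was the only gene of the set and of the zinc family that was called. When single libraries were left out one at a time, 0 to 1 genes of the set and 0 to 1 of the zinc family were called at an FDR of 1%, since *Mt2* passed in 3 of the 10 fits and had an FDR of up to 0.0384 in the others; the count over all genes was 2 to 3. The calls were lost without wild-type library 1, 2 or 5 and without null library 1, 3, 4 or 5. At an FDR of 5%, *Mt2* passed in 10 of 10 fits, and without wild-type library 4 the set had 2 called genes, *Mt1* being the other, an alternative chosen after seeing the data. The number of genes with separate ranges went from 1 to 3, with 3 (*Mt1*, *Mt2* and *Slc30a1*) without wild-type library 4 and 2 without wild-type library 1 (*Slc30a5* added) or null library 1 (*Slc30a1* added). Without wild-type library 3 and null library 2 together, also chosen after seeing the data, 1 gene of the set was called, and the log2 fold changes were 0.31 for *Mt1*, 0.18 for *Slc30a1* and 0.35 for *Mt3*, while *Slc39a6* (0.02) and *Slc39a14* (0.04) changed sign. Scaling by totals shifted log2 fold changes by 0.000836. No paired analysis was possible because the deposited group means do not carry the replicate numbers of the labels. With 5 libraries per group, small changes can be missed, and single libraries of genes with means over 1000 were not analysed here.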
